A study of Mus musculus with 24 samples.

Results

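The baseline of a mouse line bred for alteration of both Vhl and Rassf1a was compared with that of wild type (WT) before either gene was deleted. The libraries were chosen by their titles: 3 named Vhl/Rassf1a GFP and 3 named WT GFP, 6 of the 24 in the series. All are RNA sequencing libraries of embryonic fibroblasts, connective tissue cells grown from E13.5 mouse embryos. In the labels GFP stands for the control and Cre for the knockout, and the series also holds Vhl and Rassf1a lines and the Cre libraries of all 4 genotypes. WT GFP cells carry no alteration of either gene and Vhl/Rassf1a GFP cells carry both alterations without Cre. The means of delivery of GFP and Cre, the altered exons, the strain background and the number of embryos or cultures behind the 3 libraries of a group are not stated in the labels. Where the 3 come from a single culture, their spread, and so every p-value, is only technical. The design note of the series speaks of single kidney tubule cells, and the sample labels were followed.

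Vhl encodes the substrate receptor of a ubiquitin ligase that marks the hypoxia-inducible factors (HIF) for destruction when oxygen is present, so its loss turns on hypoxia-responsive genes. Rassf1a is a product of the gene Rassf1 that binds microtubules and the kinases of the Hippo pathway. A floxed allele is meant to work normally until Cre removes the part between its loxP sites, and lines kept apart can also differ in strain background, embryo and culture history.

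The 6 libraries held 29.9 to 43.3 M counts (M stands for 1000000). Levels are given as CPM, the counts for each M counts of a library's normalised size. The 18 fibroblast markers summed to 25912 to 28867 CPM in WT GFP and 26307 to 34154 CPM in Vhl/Rassf1a GFP. Of 12 epithelial markers, 9 lay under 1 CPM in all 6 libraries. Of 12 macrophage markers, 10 did, and Adgre1 and C1qb had no count. Vhl/Rassf1a GFP replicate 2 stood apart. Its deviation from the mean of the other 2 libraries of its group had an SD of 0.33 log2 units across genes. In the other 5 libraries this SD was 0.11 to 0.19. The deviation of replicate 2 correlated with the GC content of the gene at 0.806. The correlations were -0.709 and -0.719 for replicates 1 and 3 of its group, and -0.348, -0.483 and 0.604 for WT GFP replicates 1 to 3. The 13 mitochondrially encoded genes of oxidative phosphorylation summed to 7014 CPM in Vhl/Rassf1a GFP replicate 2 and to between 14107 and 14849 CPM in the other 5. The part of the GC trend or of this lower sum in other results was not tested. Results that rest on replicate 2 are given with and without it.

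Of 16573 genes tested, 1913 (11.5%) passed an adjusted p of 0.05 in edgeR's quasi-likelihood test, 1137 higher (6.86%) and 776 lower (4.68%) in Vhl/Rassf1a GFP. The share of higher calls was 59.4%, and 44.0% once each library's trend with GC content was removed. Most differences were small, with a median size of 0.47 log2 units among the called genes. A 2-fold difference was passed by 270 of the higher and 140 of the lower calls. Without Vhl/Rassf1a GFP replicate 2, 236 of these 270 and 119 of these 140 passed both limits again, and 1387 of the 1913 calls were made in both fits.

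Neither altered gene was called. Vhl was at 22.5, 24.4 and 23.1 CPM in WT GFP and at 20.8, 21.3 and 23.8 CPM in Vhl/Rassf1a GFP, a log2 fold change of -0.09 ± 0.09 (SE; adjusted p = 0.605, edgeR). Rassf1 was at 32.3, 29.9 and 37.2 CPM against 30.1, 37.2 and 30.6 CPM, a log2 fold change of -0.02 ± 0.09 (adjusted p = 0.933, edgeR). The groups overlapped for both genes. These values count reads over the whole gene, so they do not show the altered exons alone, nor the Rassf1a product apart from the other products of Rassf1. Of 14 HIF subunits and regulators none was called, beside 11.5% of all genes. Of 47 hypoxia-responsive genes tested 3 were called higher, near the 6.86% of all genes, and none lower, beside 4.68%. The 3 were P4ha1 and P4ha2, subunits of the enzyme that hydroxylates collagen prolines, and Pfkp, a phosphofructokinase. Their log2 fold changes were 0.22, 0.19 and 0.22, P4ha2 was not called without replicate 2 (adjusted p = 0.133, edgeR) nor without WT GFP replicate 1 or 3, and in the fit without replicate 2 3 members of the list were called lower. In the Cre libraries of the same lines 45 of the 47 were called higher against WT Cre, where the background of higher calls was 17.5%.

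The 12 leading higher genes are those with the largest differences among named genes of at least 5 CPM on average that were called with and without replicate 2 and whose WT and Vhl/Rassf1a libraries did not overlap. Their separation was thus fixed by the choice. Over all tested genes the groups did not overlap for 22.8%, and for 1852 of the 1913 called. Ifi202b, an interferon-inducible DNA-binding protein of the p200 family, had no count in the 3 WT GFP libraries. It stood at 70.4, 59.8 and 62.9 CPM in Vhl/Rassf1a GFP, at least 2365-fold higher against a floor of 3 counts over the WT group. In the other lines it averaged 1.01 CPM in Vhl GFP and 1.49 CPM in Rassf1a GFP, and Vhl/Rassf1a GFP exceeded both in direct tests (log2 fold changes of 5.98 and 5.42, adjusted p = 5.86e-15 and 1.39e-14, edgeR). The large step in Ifi202b therefore separated the double line from all 3 other GFP groups.

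Serpina3n, a secreted inhibitor of serine proteases, rose from 0.899, 0.863 and 0.672 CPM to 27.7, 31.5 and 34.3 CPM, a log2 fold change of 5.24 ± 0.13. Nell2, a secreted glycoprotein, was at 5.23, 5.18 and 5.14 CPM in WT GFP and at 42.4, 45.5 and 41.8 CPM in Vhl/Rassf1a GFP. Ucp2, a carrier of the inner mitochondrial membrane, was at 3.89, 4.34 and 3.93 CPM against 30.4, 39.8 and 33.1 CPM. In all 3 the highest WT library lay far under the lowest Vhl/Rassf1a library. The zinc importer Slc39a2, the phosphatidylinositol transfer protein Pitpnm3 and the sodium pump regulator Fxyd6 also rose, by 4.94, 4.01 and 3.97 log2 units. The other 5 of the 12 were gene copies, given with the copies further on.

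Among the 12 lower genes, Mgp, an inhibitor of matrix calcification, was at 381, 361 and 341 CPM in WT GFP and at 118, 126 and 123 CPM in Vhl/Rassf1a GFP (log2 fold change -1.56 ± 0.05). Nnmt, which methylates nicotinamide, fell from 11.5, 13.2 and 12.7 CPM to 2.27, 2.19 and 2.55 CPM (-2.41 ± 0.09). Both were also lower than in Vhl GFP and in Rassf1a GFP when tested directly. Cxcr6, a chemokine receptor, and Gldn, which clusters sodium channels at nodes of Ranvier, fell by 1.47 and 1.55 log2 units. The zinc finger gene Zfp52 fell by 1.80. Replicate 2 lay apart for Zfp52, at 4.10 CPM against 10.8 and 9.93 CPM in its group, and its log2 fold change without it was -1.46.

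**Figure D1:**
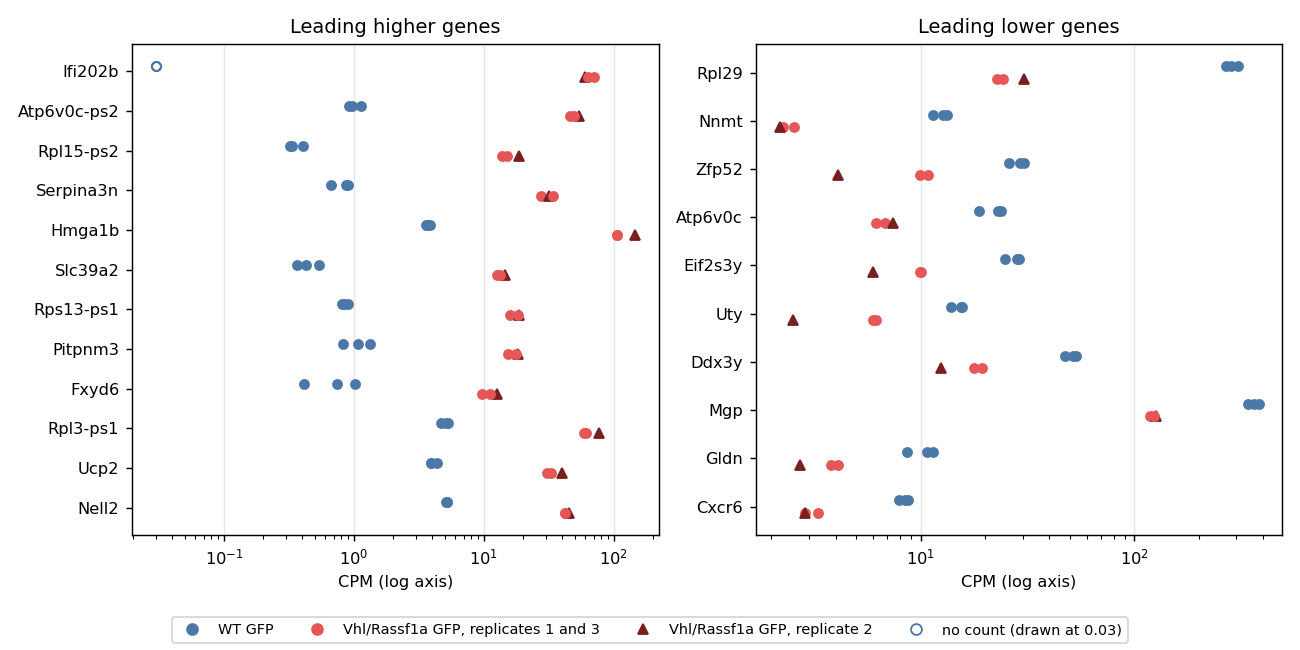
CPM on a log axis in each WT GFP and Vhl/Rassf1a GFP library for the 12 leading higher genes (left) and 10 of the 12 leading lower genes (right); open circles stand for no count. The genes were chosen with groups that do not overlap, and replicate 2 of the double line (triangles) lies below the other 2 for Zfp52, Uty, Eif2s3y and Ddx3y.

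The 24 leading genes were then compared with the other GFP lines. Their comparisons with WT use the same WT GFP libraries, so direct contrasts between the lines are given. These contrasts reuse the Vhl/Rassf1a GFP libraries by which the genes were picked. Their counts therefore only describe the picked genes. Of the 12 leading higher genes, 8 differed from Vhl GFP and 10 from Rassf1a GFP, 7 from both. Of the 12 leading lower genes, 11 differed from Vhl GFP and 9 from Rassf1a GFP, 8 from both. The background of such calls was 26.9% of genes against Vhl GFP and 13.3% against Rassf1a GFP. It is no fair measure here, since the genes were picked for extreme Vhl/Rassf1a GFP values against WT GFP. Rpl29, at -3.46 in the double line, was at -0.16 in Vhl GFP and -3.39 in Rassf1a GFP against WT. In the direct contrasts it was called against Vhl GFP and not against Rassf1a GFP. Mgp was at 0.09 in Vhl GFP and -0.43 in Rassf1a GFP, and differed from both lines (direct log2 fold changes of -1.65 and -1.13).

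The Cre libraries of the same 2 lines share no library with the GFP libraries. Both comparisons were contrasts of the same fit to all 24 libraries, which shares the gene filter and the estimate of spread. All 24 leading genes were called in the same direction in Cre, although Cre is also meant to delete Vhl and Rassf1a in the double line. Of the 1913 genes called in GFP, 1325 were called in Cre and 1201 in the same direction, which is 62.8% of the GFP calls and 21.7% of the 5530 Cre calls. The other 124 went the opposite way. The background in Cre was 33.4%. For 539 of the 1913 the Cre difference itself departed from the GFP difference, as it did for 14.8% of all genes.

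Gene copies stood out among the higher calls past 2-fold. Processed pseudogenes are copies of messenger RNA inserted elsewhere in the genome, and reads of a parent gene can be assigned to a copy wherever their sequences are the same. Of 775 processed pseudogenes tested 81 were called higher and 7 lower, beside 6.86% and 4.68% of all genes. Their share called either way, 11.4%, was close to the 11.5% of all genes. Past 2-fold they were 75 of the 270 higher and 4 of the 140 lower calls. Without replicate 2, 71 were called higher and 6 lower. Against the same WT libraries the counts were 69 higher and 19 lower in Vhl GFP (17.2% and 14.9% of all genes) and 74 and 11 in Rassf1a GFP (9.39% and 6.68%). A copy that was low in WT could enter the test through another group, so these counts are over the copies that passed the filter. Of 93 called copies, with the transcribed ones included, 64 aligned over at least 80% of their length at 95% identity or more to a named protein-coding gene. The 59 higher ones matched 50 parent genes, of which 20 were called lower and 3 higher, with a median log2 fold change of -0.18 over the parents.

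The letters show how little separates some pairs. The stretches below are coding sequence of Atp6v0c, subunit c of the proton pump of lysosomes, and of its copy Atp6v0c-ps2, of the ribosomal protein gene Rpl29 and its copy Gm8210, and of Rnps1, which helps splicing, and its copy Gm9825. Each is from GENCODE M21 transcripts on GRCm38, 5′ to 3′, with mismatches in capitals. They cover coding bases 51 to 170, 12 to 131 and 213 to 332 of the parent, counted from the A of its start codon.
Atp6v0c: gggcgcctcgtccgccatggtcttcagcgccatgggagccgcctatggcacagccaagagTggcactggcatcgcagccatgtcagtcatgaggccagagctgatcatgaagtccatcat
Atp6v0c-ps2: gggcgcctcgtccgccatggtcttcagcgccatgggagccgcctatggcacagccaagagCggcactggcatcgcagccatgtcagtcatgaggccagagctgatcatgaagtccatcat
Rpl29: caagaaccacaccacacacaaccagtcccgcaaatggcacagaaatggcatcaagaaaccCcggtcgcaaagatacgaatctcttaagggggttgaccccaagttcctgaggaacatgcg
Gm8210: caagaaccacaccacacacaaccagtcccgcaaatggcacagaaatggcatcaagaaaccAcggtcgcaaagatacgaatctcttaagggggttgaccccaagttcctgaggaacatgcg
Rnps1: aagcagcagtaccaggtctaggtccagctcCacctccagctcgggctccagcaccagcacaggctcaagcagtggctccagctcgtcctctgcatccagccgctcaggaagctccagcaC
Gm9825: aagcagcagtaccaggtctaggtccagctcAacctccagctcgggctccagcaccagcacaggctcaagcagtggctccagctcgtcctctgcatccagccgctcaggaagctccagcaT

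Atp6v0c (chr17:24163866-24169702, minus strand) fell from 18.8, 23.1 and 23.7 CPM to 6.79, 7.46 and 6.21 CPM. Its copy (chr6:37806086-37806550, plus strand), with 1 mismatch in 465 aligned bases, rose from 0.968, 0.917 and 1.14 CPM to 45.8, 54.3 and 49.4 CPM. Their sum rose from 22.9 ± 2.71 to 56.7 ± 4.67 CPM (SD, n = 3). Gene and copy moved in opposite directions, and the sum did not stay level. In Vhl GFP the copy averaged 48.4 CPM and the sum 58.4 CPM, and in Rassf1a GFP 0.919 and 28.2 CPM.

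Rnps1 (chr17:24414565-24425901, plus strand) fell from 66.9, 66.6 and 72.8 CPM to 28.8, 30.9 and 27.6 CPM. Gm9825 (chr6:7982541-7983383, minus strand), with 5 mismatches in 843 bases, rose from 0.461, 0.486 and 0.437 CPM to 27.6, 31.2 and 28.04 CPM. The sum of this pair moved far less than either member, from 69.2 ± 3.52 to 58.0 ± 3.54 CPM. In Vhl GFP Rnps1 averaged 30.5 CPM and Gm9825 24.2 CPM, and in Rassf1a GFP 69.4 and 0.485 CPM. Hmga1, an architectural chromatin protein, and Hmga1b (chr11:120762794-120764419) differ at 3 of 1538 aligned bases and at none of the 321 coding bases. Hmga1 was at 353, 314 and 395 CPM against 152, 178 and 147 CPM, and Hmga1b at 3.85, 3.59 and 3.66 CPM against 106, 145 and 105 CPM. Their summed level was 358 ± 40.7 CPM in WT GFP and 278 ± 39.8 CPM in Vhl/Rassf1a GFP. In Vhl GFP Hmga1 averaged 115 CPM and Hmga1b 72.6 CPM, and in Rassf1a GFP 280 and 2.54 CPM.

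Rpl29 (chr9:106429454-106431568, plus strand), which lies within 5 Mb of Rassf1, behaved otherwise. It fell from 284, 269 and 304 CPM to 24.3, 30.4 and 22.8 CPM, while Gm8210 (chr1:43189156-43189638, plus strand), with 2 mismatches in 422 bases, rose from 0.184, 0.243 and 0.336 CPM to 18.6, 19.6 and 19.5 CPM. The sum of Rpl29 and its 3 called copies still fell, from 288 ± 18.5 to 47.0 ± 4.09 CPM. Gm8210 averaged 19.2 CPM in Rassf1a GFP and 0.170 CPM in Vhl GFP. Rplp0, a protein of the ribosomal stalk, was at 1513 ± 92.8 CPM in WT GFP and 859 ± 90.9 CPM in Vhl/Rassf1a GFP. Its copy Gm8730 was at 3.24 ± 0.13 and 271 ± 54.3 CPM, and averaged 310 CPM in Vhl GFP and 227 CPM in Rassf1a GFP. Of the other copies among the leading genes, Rps13-ps1 rose from 0.806, 0.836 and 0.908 CPM to 15.9, 18.8 and 18.4 CPM, and was called against neither other GFP line. Rpl15-ps2 rose from 0.323, 0.405 and 0.336 CPM to 15.1, 18.5 and 13.8 CPM, and was called against Vhl GFP alone. Rpl3-ps1 rose from 5.28, 4.69 and 5.14 CPM to 58.6, 77.1 and 61.2 CPM, and was called against Rassf1a GFP alone. The sources used here do not say how reads matching several copies were counted, so the change of each member of such a pair is uncertain. The pairs other than Atp6v0c were picked for display after their values were seen.

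**Figure D2:**
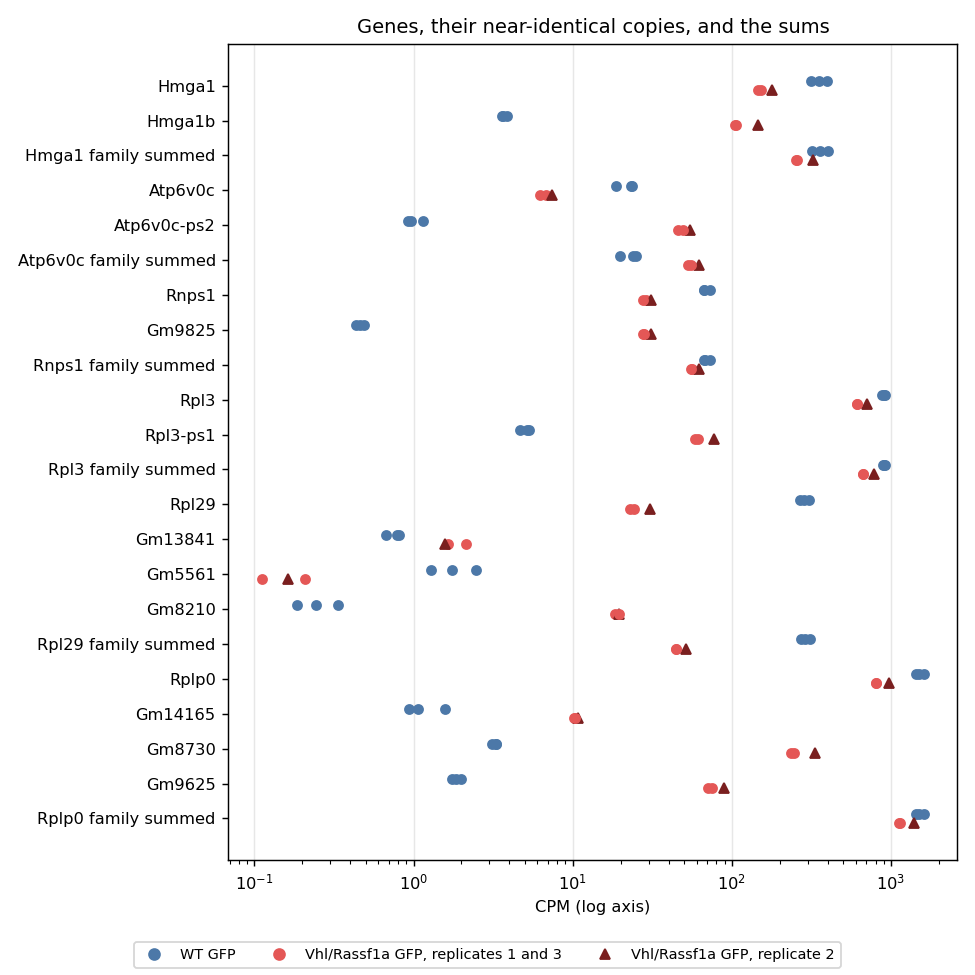
CPM on a log axis in each WT GFP and Vhl/Rassf1a GFP library for 6 genes, their near-identical copies and the sum over each family. Copies such as Hmga1b and Gm9825 rise while the parent falls, and the summed Rpl29 family falls from 288 to 47.0 CPM.

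Genes of the sex chromosomes differed between the groups. The Y-linked Kdm5d, a histone demethylase, fell from 18.5, 20.7 and 18.8 CPM to 7.30, 6.99 and 7.66 CPM. Ddx3y, an RNA helicase, fell from 53.5, 51.6 and 47.5 CPM to 17.8, 12.4 and 19.3 CPM. Eif2s3y, a translation initiation factor, and Uty, a demethylase relative, fell by 1.67 and 1.64 log2 units. Xist, the RNA that coats the inactive X chromosome, rose from 151, 177 and 136 CPM to 354, 198 and 317 CPM. Its lowest Vhl/Rassf1a library, replicate 2, was only a little above the highest WT library, and the log2 fold change was 0.90 with it and 1.12 without it. The X-linked partners Kdm5c and Eif2s3x rose by 0.26 and 0.17, and Eif2s3x was not called when replicate 1 or 3 of the double line, or 2 or 3 of WT GFP, was left out. Y-linked genes and Xist were both present in every library of both groups. For Kdm5d the direct log2 fold changes were -0.82 against Vhl GFP and -0.60 against Rassf1a GFP. The part of these differences in other results was not tested.

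Genes known to vary between inbred mouse strains differed as well. Of the 8 tested from a list of 12, 4 were called higher and 1 lower, beside 6.86% and 4.68% of all genes. Besides Ifi202b these were Nnt, the mitochondrial transhydrogenase, which rose from 53.2, 52.1 and 51.9 CPM to 83.8, 83.6 and 90.9 CPM. Wdfy1, an endosomal adaptor, rose from 30.8, 33.9 and 29.98 CPM to 77.4, 63.3 and 77.97 CPM. Gbp2b, an interferon-inducible GTPase, had no count in WT GFP and 2.66, 2.70 and 2.33 CPM in Vhl/Rassf1a GFP, at least 94.2-fold higher against the same floor. Ide, the insulin-degrading enzyme, fell by 0.51 log2 units. The same counts, 4 and 1, were found without replicate 2. Ifi202b and Gbp2b, without a count in WT GFP, passed the expression filter only through other groups. The list was chosen with earlier results of these data known, so its counts only describe the genes picked.

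The called genes were unevenly spread along the chromosomes. In windows of 5 Mb with at least 15 tested genes, the median share called was 10.7% over 386 windows. The highest share was in chr13:115000001-120000000, with 11 of 18 genes (61.1%), and it was 11 of 18 again without replicate 2. The window holds Nnt and Fgf10, a fibroblast growth factor, which rose from 14.2 ± 1.05 to 51.0 ± 9.29 CPM (SD, n = 3). Against WT GFP, Fgf10 was also higher in Vhl GFP and Rassf1a GFP, by 1.86 and 1.21 log2 units, and Nnt by 0.59 and 0.54. In the same window 12 of 18 genes were called in Vhl GFP and 6 of 18 in Rassf1a GFP, beside 32.1% and 16.1% of all genes. In chr1:170000001-175000000, 32 of 64 genes were called, and 30 of 64 without replicate 2. Of the 32, 30 were called in the same direction in the Cre libraries, beside 62.8% of all GFP calls. This window holds Ifi202b, Ifi203 and Ifi204. Adamts4, a protease that cleaves aggrecan, fell there from 31.7, 31.7 and 31.0 CPM to 12.9, 17.4 and 15.2 CPM. In chr15:30000001-35000000, 11 of 22 genes were called, and 7 of 22 (31.8%) without replicate 2. The windows named were picked for the highest shares of the 386. Genes in a window can share reads, regulation or sequence background and are not independent of each other. Fgf10 was named after its values were seen.

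Around the altered genes the shares were closer to the background, which was 11.5% of all genes and 10.2% without replicate 2. Within 5 Mb of Vhl 12 of 75 genes were called (16.0%), and 8 of 75 (10.7%) without replicate 2. The 4 with the smallest adjusted p were Irak2, Plxnd1, Alox5 and Edem1, with log2 fold changes of -0.30, 0.46, -0.75 and -0.26. Within 5 Mb of Rassf1 26 of 158 were called (16.5%), and 22 of 158 (13.9%) without replicate 2. Besides Rpl29 they included Mapkapk3, a stress-activated kinase, at 42.7, 41.3 and 45.9 CPM against 25.2, 27.2 and 24.9 CPM. Parp3, an ADP-ribosyltransferase of DNA repair, was at 155, 152 and 164 CPM against 95.5, 113 and 94.6 CPM, and Col6a4, a collagen VI chain, fell by 1.98 log2 units. All 4 were lower than in Vhl GFP by direct test, with log2 fold changes of -3.31, -0.74, -0.92 and -1.86. Against Rassf1a GFP, Mapkapk3 was higher by 0.24 (adjusted p = 0.0039, edgeR) and the other 3 were not called.

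**Figure D3:**
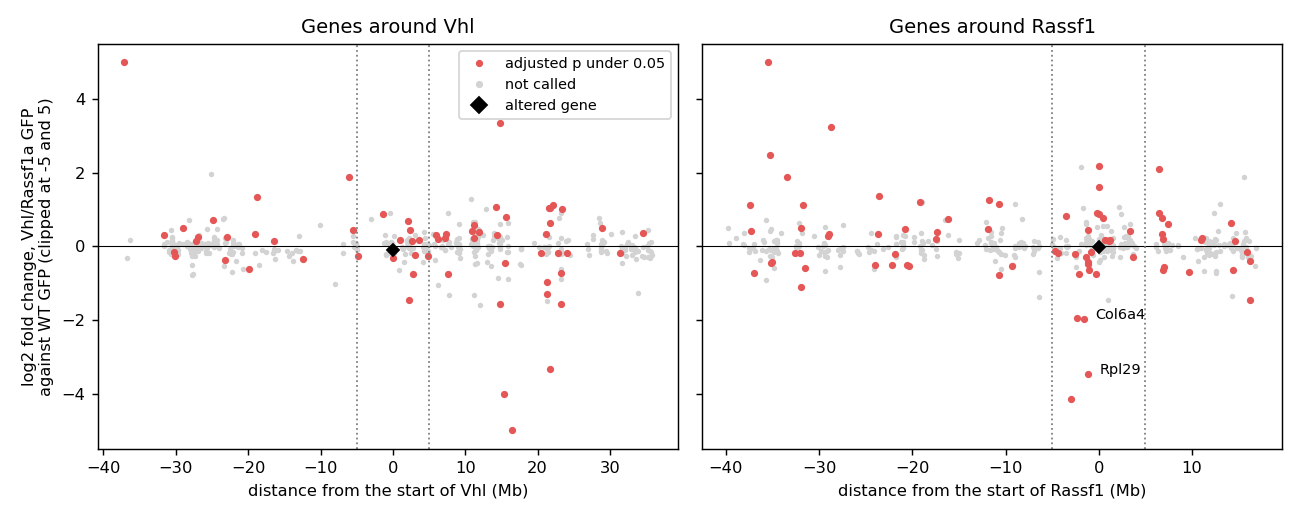
Log2 fold change of Vhl/Rassf1a GFP against WT GFP for tested genes by distance in Mb from the start of Vhl (left) and Rassf1 (right), with called genes in red, others in grey, the altered gene as a diamond and dotted lines at 5 Mb. Both altered genes lie near 0, and Rpl29 and Col6a4 lie low beside Rassf1.

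Interferon-stimulated genes, which cells switch on when interferons bind their receptors, gave the largest count of called genes of the 42 lists, and it rested on single libraries. Of 45 tested, 24 were called higher and none lower, beside 6.86% of all genes, with a median log2 fold change of 0.73 (0.003 over all genes). Without Vhl/Rassf1a GFP replicate 2 the count was 4 and the median 0.35. Leaving out WT GFP replicate 3 instead gave 6, leaving out WT GFP replicate 1 gave 13, and any other of the 6 libraries 22 to 29. Isg15, a ubiquitin-like modifier, was at 33.5, 39.4 and 21.7 CPM in WT GFP and at 59.6, 146 and 41.1 CPM in Vhl/Rassf1a GFP. Irf7, a transcription factor that amplifies the response, was at 16.0, 15.1 and 11.0 CPM against 23.7, 53.2 and 18.7 CPM. Without replicate 2 neither was called (adjusted p = 0.257 and 0.191, edgeR), nor without WT GFP replicate 3, nor Isg15 without WT GFP replicate 1. Vhl/Rassf1a GFP replicate 2 was the highest of the 6 libraries in 43 of the 45 genes, and WT GFP replicate 3 the lowest in 44. Replicates 1 and 3 of the double line lay above all 3 WT libraries in 36 and 31 genes.

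The genes called also without replicate 2 were Xaf1, Ifi203, Ifi44 and Ifi204. Xaf1, a pro-apoptotic zinc finger protein, rose from 17.3, 17.5 and 11.9 CPM to 99.5, 153 and 76.1 CPM (log2 fold change 2.81 ± 0.26). Ifi203, a p200 protein, rose from 8.92, 8.80 and 5.85 CPM to 31.3, 30.1 and 25.4 CPM (1.87 ± 0.22). Ifi44 was at 13.8, 13.8 and 6.08 CPM against 37.1, 53.8 and 26.2 CPM, and Ifi204 at 29.2, 28.8 and 20.8 CPM against 39.5, 43.5 and 36.9 CPM. The WT and Vhl/Rassf1a libraries did not overlap for 25 of the 45 genes, these 4 included, against 22.8% of all genes. Ifi203 and Ifi204 lie beside Ifi202b on chromosome 1 and belong to the same family, so some of their reads could be shared. In the Cre libraries the double line had 4 of the 45 higher and 29 lower than WT Cre, beside 17.5% and 15.8% of all genes. Against WT GFP the Vhl line had 36 higher and the Rassf1a line 29 (beside 17.2% and 9.39% of all genes), with none lower, and WT GFP replicate 3 enters both of these comparisons.

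**Figure D4:**
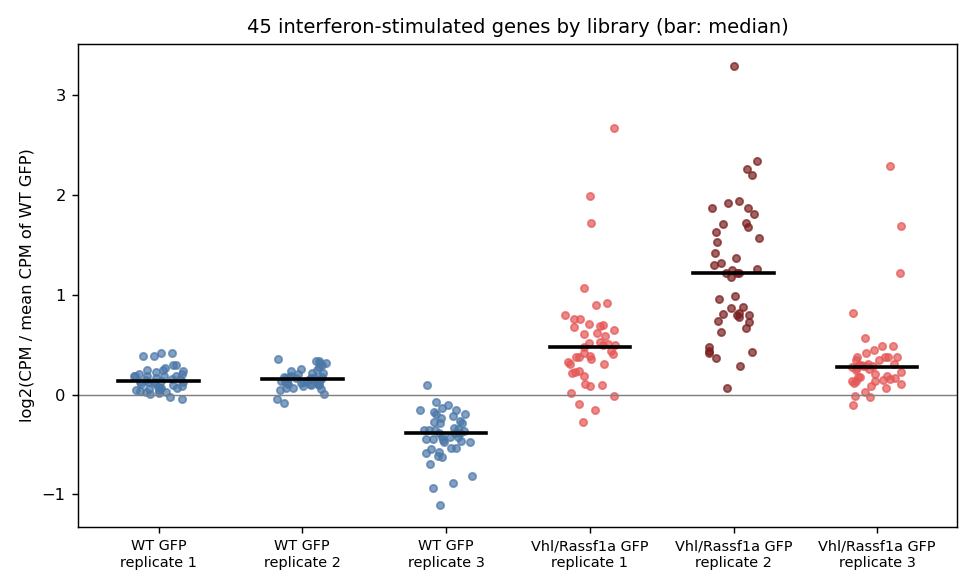
Log2 ratio of CPM to the WT GFP mean for each of 45 interferon-stimulated genes (points) in the 6 libraries, with the median as a bar. Medians are -0.38 in WT GFP replicate 3, 1.22 in Vhl/Rassf1a GFP replicate 2, and 0.48 and 0.28 in the other 2 Vhl/Rassf1a libraries.

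The promoters of the interferon list were searched on both strands for GAAANNGAAA, the core of the interferon-stimulated response element. The search covered 250 bases before to 50 after each gene start (RefSeq, GRCm38.p6), with overlapping matches counted. A promoter was found for 31 of the 45, and 19 of the 31 held the motif, against 3.99% of 27025 genes. The list was chosen for its response to interferon, so this high share comes with the choice and says nothing about these libraries. The motif was in 12 of 17 called genes and in 7 of 14 others, a contrast that was not tested. The stretches below, upstream of Isg15 (chr4:156200855-156200954, minus strand), Irgm1 (chr11:48871421-48871520, minus strand) and Ifit3 (chr19:34583337-34583436, plus strand), have the matches in capitals, on either strand. Irgm1, an immunity-related GTPase, was called at 0.48 log2 units, though in a single fit of the 6 that left out 1 library each, and Ifit3, which binds foreign RNA, was not called, at 0.66.
Isg15: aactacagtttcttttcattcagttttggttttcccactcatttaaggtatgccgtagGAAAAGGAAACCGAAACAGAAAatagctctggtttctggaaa
Irgm1: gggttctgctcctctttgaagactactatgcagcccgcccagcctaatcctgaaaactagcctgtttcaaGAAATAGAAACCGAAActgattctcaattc
Ifit3: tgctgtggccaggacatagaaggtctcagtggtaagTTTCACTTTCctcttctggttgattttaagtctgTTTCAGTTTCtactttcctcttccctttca

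Wnt signalling genes were higher in the double line in 10 of 36 tested and lower in 1, beside 6.86% and 4.68% of all genes, with a median of 0.24. Without replicate 2 the counts were 8 and 2. Against the same WT GFP libraries the Vhl line had 18 higher and 1 lower, and the Rassf1a line 14 and 0. The shares of all genes were 17.2% higher and 14.9% lower in the Vhl line, and 9.39% and 6.68% in the Rassf1a line. Rspo2, a secreted enhancer of Wnt signalling, was at 69.7, 62.5 and 65.1 CPM in WT GFP and at 166, 153 and 170 CPM in Vhl/Rassf1a GFP. Its receptors Lgr6 and Lgr5 rose from 4.47, 4.69 and 3.70 CPM to 10.9, 10.7 and 10.8 CPM and from 2.28, 2.13 and 2.22 CPM to 5.33, 4.10 and 5.49 CPM. The secreted Wnt inhibitor Wif1 rose by 1.02 log2 units, so agonists and an antagonist rose together. Rspo2 differed from Rassf1a GFP (1.02) and was not called against Vhl GFP (0.13, adjusted p = 0.154, edgeR).

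Cartilage genes were higher in 6 of 17 tested and lower in 1 (5 and 1 without replicate 2), beside 6.86% and 4.68% of all genes. Against WT GFP the Vhl line had 12 higher and 0 lower, and the Rassf1a line 3 and 3. The shares of all genes for these 2 lines are those given with the Wnt genes. Acan, the aggregating proteoglycan of cartilage, rose from 1.15, 1.21 and 1.18 CPM to 7.75, 7.60 and 5.85 CPM, a log2 fold change of 2.58 ± 0.14. Hapln1, which links it to hyaluronan, and the collagen chain Col9a2 rose by 1.43 and 1.07. Sox9, the factor that drives cartilage genes, fell by 0.31, so the list did not move one way. Its summed level was 379 to 464 CPM in WT GFP and 408 to 569 CPM in Vhl/Rassf1a GFP, so the groups overlapped. In bulk RNA fewer cells of a type and less RNA per cell cannot be told apart. Of 12 endothelial markers, Flt1, a receptor of vascular endothelial growth factor, was the only member called and rose from 62.7, 68.7 and 62.7 CPM to 111, 102 and 115 CPM, while Tie1 had no count. The summed level of these 12 was 118 to 123 CPM in WT GFP and 167 to 170.5 CPM in Vhl/Rassf1a GFP, most of the difference being Flt1 itself, and the median log2 fold change of the list was 0.04.

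Among extracellular matrix genes 10 of 40 were higher and 4 lower, beside 6.86% and 4.68% of all genes. Without Vhl/Rassf1a GFP replicate 2 the counts were 7 and 4. With GC-corrected offsets, where more of all genes were called, the counts were 11 and 9. Against WT GFP the Vhl line had 29 higher and 3 lower, and the Rassf1a line 26 and 0. The shares of all genes for these 2 lines are those given with the Wnt genes. Col11a1, a fibrillar collagen chain, rose from 298, 294 and 281 CPM to 376, 374 and 383 CPM. Eln, elastin, rose by 0.65 and Sparc, a secreted collagen-binding protein, fell by 0.31 log2 units. Of 29 imprinted genes, which are expressed from the copy of 1 parent, 6 were higher and 2 lower, beside 6.86% and 4.68% of all genes. Without Vhl/Rassf1a GFP replicate 2 the counts were 8 and 1, and none was lower without WT GFP replicate 2 or 3. Igf2, a fetal growth factor, rose from 443, 449 and 451 CPM to 700, 675 and 741 CPM, and its neighbour H19 from 381, 371 and 363 CPM to 547, 544 and 545 CPM. Mest rose by 0.96, and in the Cre libraries it fell by 0.36. Mirg and Igf2r rose by 0.37 and 0.14 log2 units and Magel2 by 0.83, while Peg3 and Zim1 fell by 0.24 and 0.46. With single libraries left out in turn, Magel2 was called only without Vhl/Rassf1a GFP replicate 3 and Zim1 only without WT GFP replicate 1. Peg3 was not called without replicate 2 of either group or WT GFP replicate 3, nor Igf2r without replicate 3 of either group.

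The calls in several lists were mainly lower ones, where 4.68% of all genes were called lower and 6.86% higher. Against the same WT GFP libraries 14.9% of all genes were lower and 17.2% higher in the Vhl line. In the Rassf1a line the shares were 6.68% and 9.39%. Of 24 cholesterol synthesis genes 9 were lower and 1 higher (11 and 1 without replicate 2). In the Vhl line 19 were lower and 0 higher, and in the Rassf1a line 3 and 1. Hsd17b7, an enzyme of the pathway, fell from 85.0, 84.4 and 78.9 CPM to 56.7, 48.8 and 56.8 CPM. Insig1, which restrains the pathway, fell by 0.46, and the enzyme Cyp51 by 0.43 log2 units. Of 26 immediate early genes, which respond within minutes to growth signals, 9 were lower and none higher (11 and none without replicate 2). In the Vhl line 18 were lower and 2 higher, and in the Rassf1a line 12 and 0. Fos fell from 11.2, 10.8 and 11.2 CPM to 6.34, 6.52 and 5.88 CPM, and the factor Egr2 and the RNA-binding protein Zfp36 by 0.83 and 0.62. Of 26 NRF2 targets, genes of the antioxidant response, 7 were lower and 2 higher. In the Vhl line 12 were lower and 3 higher, and in the Rassf1a line 0 and 5. Nqo1, a quinone reductase, fell from 146, 148 and 138 CPM to 103, 98.0 and 100.2 CPM, whereas Slc7a11, the cystine importer, rose from 17.0, 17.7 and 16.7 CPM to 40.5, 40.3 and 38.4 CPM.

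Of 22 contractile genes 7 were lower and 1 higher, and the lower count was 4 without Vhl/Rassf1a GFP replicate 1. Against WT GFP the Vhl line had 16 lower and 0 higher, and the Rassf1a line 14 and 1. Tpm1, a tropomyosin, fell by 0.32 log2 units. Of 31 genes of the p53 axis 5 were lower and none higher. In the Vhl line 11 were lower and 5 higher against WT GFP, and in the Rassf1a line 8 and 3. Btg2, an inhibitor of proliferation, fell from 105, 102 and 101 CPM to 73.2, 77.4 and 75.6 CPM, and Mdm2, the ubiquitin ligase of p53, by 0.30. The p53 count was 8 without Vhl/Rassf1a GFP replicate 3. Of 33 ribosomal protein genes 4 were lower and none higher, and 9 were lower without replicate 2. Rpl30 fell from 264, 260 and 230 CPM to 175, 179 and 182 CPM, and Rpl3, Rps2 and Rpl7 fell by 0.49, 0.49 and 0.17. Rpl7 was not called without replicate 1 or 2 of either group. For genes of the cell cycle the lower calls were near the share of all genes: 1 of 38 mitosis genes was higher and 2 lower, and of the 33 replication and 36 repair genes 2 each were lower. These small counts moved by at most 1 when any of the 6 libraries was left out. With GC-corrected offsets the lower counts were larger: 15 for cholesterol synthesis, 14 for immediate early genes, 15 for NRF2 targets, 12 for contractile genes, 17 for the p53 axis, 11 for ribosomal proteins, 10 for mitosis, 4 for replication and 5 for repair.

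**Figure D5:**
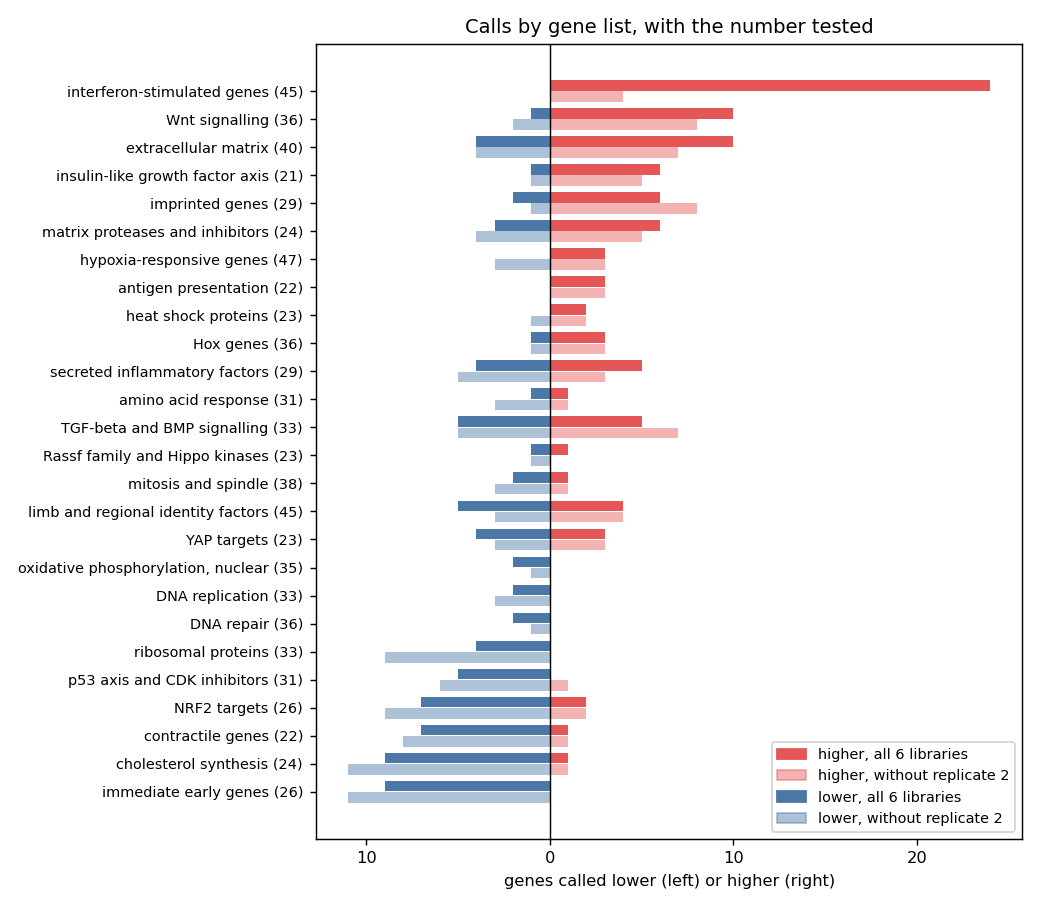
Number of genes called lower (left) or higher (right) in Vhl/Rassf1a GFP for the 26 lists with at least 20 tested genes (number in brackets), with all 6 libraries (full colour) and without Vhl/Rassf1a GFP replicate 2 (pale). The interferon bar shrinks from 24 to 4, while cholesterol synthesis and immediate early genes go from 9 to 11 lower.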

How the data were processed

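The authors deposited raw read counts for 45706 genes in 24 libraries. Per the labels' protocols a NucleoSpin RNA kit gave the RNA and a TruSeq Stranded kit the libraries; per the submitters' processing notes Trimmomatic 0.38, STAR 2.5.2b and GRCm38 were used. No source used here gives the counting tool or strand setting, so overlapping and antisense genes are uncertain. Symbols came from GENCODE M21 (45143 matched IDs, 563 without).

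One model was fitted to all 24 libraries with a mean for each of 8 groups: edgeR 4.0.16 quasi-likelihood in R 4.3.3, filterByExpr (minimum count 10, minimum total 15; 16573 genes), TMM, two-sided, Benjamini-Hochberg over all genes in each of 7 comparisons. The SE is the log2 fold change over the square root of F, and CPM uses TMM sizes. Scripts were tested on simulated data. Copies were aligned with blastn 2.17.0. GC-corrected offsets remove a smooth trend of each library on transcript GC content.

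Members and the 42 gene lists (1037 genes) were chosen with earlier results of these data known. The text names the altered genes, the 12 leading genes each way (mean of at least 5 CPM, groups apart, called without Vhl/Rassf1a GFP replicate 2), up to 4 genes per list and locus, and all called Hox, imprinted, sex-linked and strain-variation genes; others (such as Hmga1, Rnps1, Rplp0, Isg15, Irf7, Irgm1, Ifit3 and the copies named Gm) were chosen after their values were seen. Some genes this rule picks, 2 leading lower genes among them, are not reported here. Alternatives were DESeq2 1.42.0 (size factors; Wald test), no filter, only the compared groups, a minimum log2 change of 1, GC-corrected offsets, a replicate block and each library left out.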

Additional observations from a re-analysis of the deposited data

Results flagged for a closer look

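For 7 of the altered and leading genes the difference between the lines in the Cre libraries departed from that in the GFP libraries, by the interaction term of the edgeR model (14.8% of all genes did). The Cre minus GFP difference in log2 fold change was -3.44 ± 0.14 (SE) for Vhl, adjusted p = 3.89e-14, and 0.51 ± 0.13 for Rassf1, adjusted p = 0.00663. Cre is meant to remove both Vhl and Rassf1a in this line, yet the difference was positive for Rassf1, counted over the whole gene. Among the leading genes it was -0.94 for Serpina3n, -0.70 for Ucp2 and -1.13 for Nell2, whose higher level in the double line was smaller in Cre. It was -0.94 for Mgp, whose lower level was lower still in Cre. It was 0.65 for Cxcr6, which was less reduced in Cre. Adjusted p-values of these 5 ran from 7.56e-10 for Mgp to 0.00648 for Cxcr6. A sixth leading gene with such a difference is not reported here.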

How the results depend on the processing

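For Vhl/Rassf1a GFP against WT GFP the 1913 calls became 3204 with GC-corrected offsets, 762 when only the groups compared were fitted, 170 with a minimum log2 change of 1, and 3140 with a replicate block and GC-corrected offsets. The fit of only the compared groups uses fewer samples, and the minimum change is a stricter test; the cause of the other shifts was not tested. Without Vhl/Rassf1a GFP replicate 2 there were 1692 of 16881 genes tested in that fit, 1683 of them among the 16573, and 2549 with GC-corrected offsets besides, an alternative chosen after seeing the data. Leaving out each of the 6 libraries gave 1400 to 1943. Same-numbered WT and Vhl/Rassf1a libraries had correlations of deviations of 0.06, -0.12 and -0.11, so the numbers were not taken as pairs; the replicate block gave 1814.

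For the difference between the Cre and the GFP comparison of the 2 lines, 2454 calls became 3978 with GC-corrected offsets, an alternative chosen after seeing the data. Leave-one-out counts stayed within 1.5 times for every comparison. Of the 147 genes that the naming rule picked, not all of them in the text, 145 were called, 131 also without Vhl/Rassf1a GFP replicate 2 and 117 without any 1 of the 6 libraries. Of the 11 genes named outside the rule 10 were called, and Isg15, Irf7 and Irgm1 lost their call without replicate 2. None of these 158 genes reversed in the alternatives run. With 3 libraries a group, small differences of low genes cannot be resolved.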

Other observations

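Of 36 Hox genes tested, 3 were called higher and 1 lower, near the 6.86% and 4.68% of all genes: Hoxb6, Hoxb8 and Hoxc4 were higher by 0.36, 0.41 and 0.40 log2 units and Hoxc10 was lower by 0.71, with values of 12.3, 12.5 and 13.4 CPM in WT GFP and 7.27, 7.90 and 8.10 CPM in Vhl/Rassf1a GFP. The same counts, 3 and 1, were found without replicate 2, while Hoxb8 was not called without WT GFP replicate 1 nor Hoxc4 without WT GFP replicate 2. Of 45 limb and regional identity factors 4 were higher and 5 lower against the same shares. With GC-corrected offsets, where more of all genes were called, the counts were 5 and 9. Without that correction the lower count dropped to 2 when WT GFP replicate 3 was left out. It dropped to 3 when WT GFP replicate 1 or Vhl/Rassf1a GFP replicate 1 or 2 was left out. Foxd1, a forkhead factor, rose from 3.32, 2.99 and 2.89 CPM to 6.10, 7.32 and 7.21 CPM, while Shox2 and Emx2, homeobox factors, fell by 0.57 and 0.59. Bmp2 and Bmp5, secreted bone morphogenetic proteins, rose by 1.10 and 1.13, beside 5 higher and 5 lower of 33 genes of their list (3 lower without WT GFP replicate 1 or 3 or Vhl/Rassf1a GFP replicate 1).

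Secreted inflammatory genes went both ways, with 5 of 29 higher and 4 lower, beside 6.86% and 4.68% of all genes. Leaving out WT GFP replicate 3 reduced the higher count to 2, and leaving out WT GFP replicate 1 or Vhl/Rassf1a GFP replicate 1 or 2 reduced it to 3. Il6, a cytokine, fell from 4.33, 4.64 and 4.00 CPM to 2.42, 1.58 and 2.41 CPM, and Cxcl5 and Lif by 0.69 and 0.43 log2 units. Tnfrsf11b, a decoy receptor for RANKL, rose by 0.24. Mmp13, a collagenase, rose from 2.70, 2.86 and 2.08 CPM to 5.60, 4.82 and 6.27 CPM, and the adenosine-producing ectoenzyme Nt5e from 5.83, 5.18 and 4.77 CPM to 12.1, 11.6 and 12.7 CPM.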
